A study of Mus musculus with 17 samples.

Results

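The loci described here carry 10 antiviral effector genes that interferon switches on in mouse macrophages, namely Rsad2, Cmpk2, Isg15, Mx1, Mx2, Oas1a, Oas2, Oas3, Oasl1 and Oasl2. Every accessible-chromatin peak within 20 kb of these gene bodies was followed, with gene positions from the GENCODE annotation of mm10. Windows that touched were joined, which left 7 loci on chromosomes 4, 5, 12 and 16. They held 27 of the 34186 merged accessible sites of the whole series, and 81 of its 38089 summit windows, which are stretches of 250 bp to each side of a peak top.

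The assay was ATAC-seq, where a transposase cuts open DNA and leaves sequencing adapters there. It was run on bone marrow-derived macrophages (BMDMs) of male C57Bl6/J mice of 6 to 12 weeks. Wild-type (WT) mice were compared with littermates without Nur77 (KO), a nuclear receptor whose gene is Nr4a1. The knockout was made by crossing mice with a loxP-flanked Nr4a1 to mice with Cre under a cytomegalovirus promoter, after which Cre was bred out, although the genotype label of the KO samples reads "cre". The cells had no lipopolysaccharide (LPS, 0 h) or 100 ng/ml LPS for 1 or 18 h. Each genotype and time had 3 peak lists, except WT at 1 h with 2, of which 1 is named replicate 1-2. No source ties a list to its own mouse, so p-values measure the spread between these lists, which may be technical.

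LPS is sensed by Toll-like receptor 4, whose signalling switches on IRF3 and the gene for interferon-beta. The secreted interferon then acts on the same and neighbouring cells through a complex with STAT2 and IRF9 that binds a DNA motif called the interferon-stimulated response element (ISRE). The members are classic targets of that complex. OAS enzymes sense double-stranded RNA and make short oligoadenylates, Mx proteins are dynamin-like GTPases, viperin (Rsad2) makes a chain-terminating nucleotide from CTP, and ISG15 is a ubiquitin-like tag.

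The core of the ISRE was sought on both strands as GAAA and GAAA with any 2 bases between them. In the 150 bases before the start site, 5 of the 10 members held it (Rsad2, Isg15, Oas2, Oas3 and Oas1a), against 1.62% of 21938 protein-coding genes. Those promoters are printed because the sections on Rsad2, Isg15 and the Oas genes refer to them. Each line runs 5′ to 3′ on the gene's own strand, and capitals mark the ISRE core on either strand. All sequences are from the NCBI RefSeq genome GRCm38.p6, the assembly of mm10.
Rsad2 promoter (chr12:26456453-26456602, minus strand): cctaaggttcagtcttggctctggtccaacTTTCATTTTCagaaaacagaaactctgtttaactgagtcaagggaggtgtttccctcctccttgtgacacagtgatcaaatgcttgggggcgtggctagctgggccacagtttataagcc
Isg15 promoter (chr4:156200819-156200968, minus strand): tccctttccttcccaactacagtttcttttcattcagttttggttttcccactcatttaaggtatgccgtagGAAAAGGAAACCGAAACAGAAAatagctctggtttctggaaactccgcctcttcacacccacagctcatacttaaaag
Oas3 promoter (chr5:120777662-120777811, minus strand): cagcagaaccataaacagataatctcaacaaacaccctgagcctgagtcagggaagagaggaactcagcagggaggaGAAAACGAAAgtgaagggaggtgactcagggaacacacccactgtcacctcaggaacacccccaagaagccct
Oas2 promoter (chr5:120749854-120750003, minus strand): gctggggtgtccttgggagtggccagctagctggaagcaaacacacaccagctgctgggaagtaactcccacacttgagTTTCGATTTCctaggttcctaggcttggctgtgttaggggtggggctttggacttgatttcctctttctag
Oas1a promoter (chr5:120907522-120907671, minus strand): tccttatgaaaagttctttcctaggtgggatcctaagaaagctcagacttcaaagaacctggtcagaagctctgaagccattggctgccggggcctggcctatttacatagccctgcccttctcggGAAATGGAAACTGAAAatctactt
The Isg15 promoter held 3 overlapping cores in a row, Oas1a held 2 and the other 3 held 1 each. The Oas3 core lay 73 bases before the start and the Oas2 core 71.

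A pair of elements outside the promoters, both beside Rsad2, is shown because they take up the account of the 1 h response. Each held 2 ISRE cores, in capitals, and the lines run on the plus strand.
Rsad2 downstream element (chr12:26439401-26439601, plus strand): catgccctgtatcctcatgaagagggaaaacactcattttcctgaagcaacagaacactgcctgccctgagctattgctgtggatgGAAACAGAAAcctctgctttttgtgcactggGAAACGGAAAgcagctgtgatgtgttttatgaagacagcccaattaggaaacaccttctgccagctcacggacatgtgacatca
Rsad2 upstream element (chr12:26460222-26460422, plus strand): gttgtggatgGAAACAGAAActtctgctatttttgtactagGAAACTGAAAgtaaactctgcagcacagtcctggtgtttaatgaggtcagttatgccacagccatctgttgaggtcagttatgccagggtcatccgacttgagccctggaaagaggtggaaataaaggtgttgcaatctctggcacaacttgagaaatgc
A local alignment of the pair covered 50 columns, of which 44 were identical (88%), and that stretch took in both cores of each.

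The start region of Mx1 and the region before the start of the coding transcript of Mx2 were also alike, and are shown with their longest shared run of 40 bases in capitals.
Mx1 (chr16:97462908-97463057, minus strand): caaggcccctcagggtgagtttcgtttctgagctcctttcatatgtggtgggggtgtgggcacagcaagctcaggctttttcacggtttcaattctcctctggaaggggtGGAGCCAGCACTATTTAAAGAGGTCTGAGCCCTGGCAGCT
Mx2 (chr16:97535933-97536082, plus strand): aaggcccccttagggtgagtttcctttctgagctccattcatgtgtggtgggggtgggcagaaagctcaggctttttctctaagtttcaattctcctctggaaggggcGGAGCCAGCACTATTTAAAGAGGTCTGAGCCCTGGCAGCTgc
Over 152 aligned columns 137 were identical (90.1%). The Mx2 stretch ends 775 bp inside the gene as GENCODE draws it, which starts from a longer noncoding transcript.

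The 17 lists held 1001519 peak entries in 808470 intervals, with 24389 to 71456 intervals in a list. Depth in reads is not given by the lists, and the median fold over background of the strongest entries ran from 8.51 to 58.3. Peaks were therefore ranked inside each list by their p-value (rank 1 is the smallest), and only the best 24389 intervals or 26558 summits of a list counted as present, the number in the shortest list. Differences are on the minus log2 scale of that rank, where 1 unit is a 2-fold better rank, and absent sites took the limit. KO 18 h replicate 1 stood apart, with a median interval width of 135 bp against 338 to 661 bp in the others. All 6 macrophage markers had a promoter peak in 17 of 17 lists. Cd3e, Cd3g, Cd79a, Ly6g, Epcam and Cdh1 had one in 0, Pdgfra in 1, Camp in 10, Col1a1 in 14, and Cdh5 and Pecam1 in 17.

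At 18 h the chromatin of these loci stood higher in the ranking than at 0 h, and it did so in both genotypes. Of the 27 sites, 15 were higher and 0 lower at 18 h (limma, adjusted p under 0.05 over all sites). Over all sites 10.1% were called higher and 12.7% lower. The median difference of the member sites was 0.51, against 0 over all sites. At 1 h 6 were higher and 0 lower, against 12.8% and 14.1% of all sites, with a median of 0.02 against -0.02. From 1 to 18 h 14 were higher and 0 lower, against 13% and 14.4%, with a median of 0.29 against 0.02. At unadjusted p under 0.05, 0 sites were lower at 1 h, 0 at 18 h and 1 from 1 to 18 h. The 1 h and 18 h comparisons share the 0 h lists. In bulk lists like these, more cells with an open site and more opening per cell cannot be told apart.

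Part of the 18 h counts, against 0 h and against 1 h, comes from how sites entered. Of the 27 sites, 11 had no matched-number peak at 0 h and 8 had one only at 18 h, so those could hardly be lower. The 8 were at the limit at 1 h too and could not be lower from 1 to 18 h. No count without them is given for that comparison. Among the 16 with a peak in at least 1 list at 0 h, 11 were higher at 18 h, Oas1a with a single 0 h list among them, and 6 at 1 h, against 8.54% and 10.6% of all sites of that kind.

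**Figure D1:**
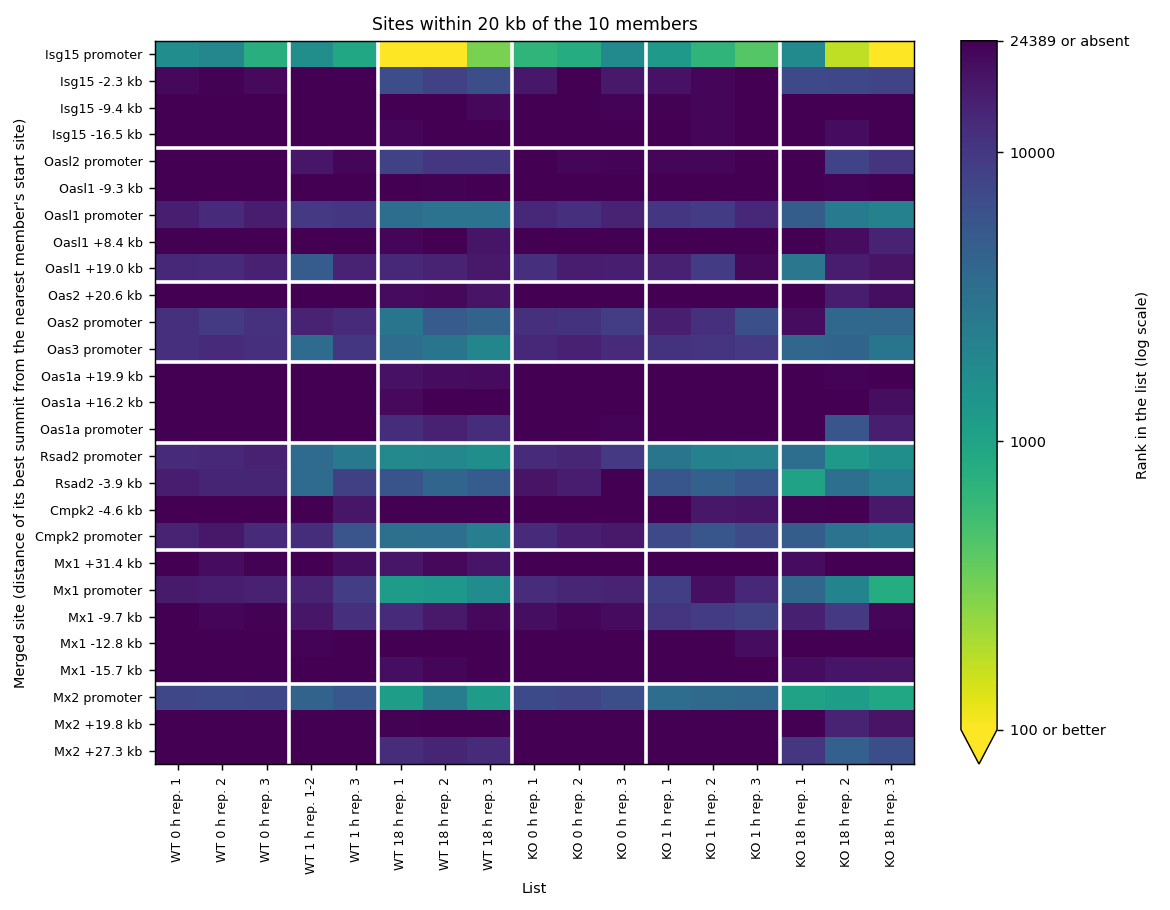
Rank of each of the 27 sites (vertical, named by the distance of its best summit from the nearest member's start) in each of the 17 lists (horizontal), as colour on a log scale from 24389 or absent (dark) to 100 or better (bright). Promoter sites brighten in the 18 h columns of both genotypes, while the sites beside Rsad2 are already brighter at 1 h.

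Rsad2 and Cmpk2 lie head to head on chromosome 12, and theirs was the locus with the most early change. The promoter window of Rsad2 (chr12:26456209-26456709, over the start site) ranked 14690, 15150 and 16782 in WT and 14429, 21151 and 11470 in KO at 0 h. At 1 h the ranks were 13590 and 10361 in WT and 8177, 3725 and 3714 in KO. At 18 h they were 1990, 2106 and 1703 in WT and 3821, 1401 and 1722 in KO, so no 18 h list overlapped a 0 h list. The window rose by 1.02 ± 0.28 (SE) at 1 h (limma, adjusted p = 0.0171) and by 2.93 ± 0.26 at 18 h (adjusted p = 9.31e-06). The 1 h call was lost without WT 1 h replicate 3 (adjusted p = 0.065).

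The downstream element of Rsad2, whose sequence is given above, had the opposite timing. It lies 17 kb from the start and 3.2 kb beyond the 3′ end of the gene, in intergenic DNA, and its window (chr12:26439251-26439751) holds the ISRE cores 9 bp before and 22 bp after the summit. At 0 h it ranked 19055, 17475 and 22321 in WT and 20403, 15618 and 24729 in KO. At 1 h it ranked 4037 and 2920 in WT and 3131, 2422 and 2342 in KO, better than in every other list of either genotype. By 18 h it had gone back to 10662, 8465 and 9637 in WT and 17668, 8706 and 16923 in KO. The element rose by 2.72 ± 0.19 at 1 h (limma, adjusted p = 7.31e-07) and stood 0.78 ± 0.18 above 0 h at 18 h (adjusted p = 0.00835). Between 1 and 18 h it fell by 1.94 ± 0.19 (adjusted p = 1.2e-05). Of the 81 member windows it was the 1 that fell between those times, against 14.1% of all windows. However, 56 of the 81 had a matched-number summit only at 18 h and could not fall.

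The upstream element (chr12:26460072-26460572, 3.9 kb before the start of Rsad2 and also intergenic) changed early and stayed. Its 0 h ranks were 18356, 16021 and 15952 in WT and 21358 and 18974 in KO, with none in KO replicate 3. At 1 h they were 4037 and 9891 in WT and 6126, 5110 and 6177 in KO. At 18 h they were 6563, 4496 and 5430 in WT and 1182, 3684 and 2510 in KO. It rose by 1.67 ± 0.28 at 1 h (limma, adjusted p = 0.000748) and by 2.47 ± 0.26 at 18 h (adjusted p = 3.42e-05). The 2 elements thus shared a stretch of sequence and a rise at 1 h, and the difference from 1 to 18 h was -1.94 in the one and 0.80 (adjusted p = 0.0533) in the other.

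Cmpk2 encodes a mitochondrial nucleotide kinase and is induced together with viperin. Its promoter window (chr12:26469069-26469569) ranked 14145 to 20102 at 0 h, 6337 to 13590 at 1 h and 2500 to 5621 at 18 h, with no overlap between the times. It rose by 1.04 ± 0.22 at 1 h (limma, adjusted p = 0.00394) and by 2.29 ± 0.21 at 18 h (adjusted p = 1.07e-05). A small site 4.6 kb before the start held an ISRE core 14 bp from its summit and had no peak in any 0 h list, matched or full. Its difference was 0.28 at 1 h and 0.10 at 18 h, given without a test since neither could be negative.

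**Figure D2:**
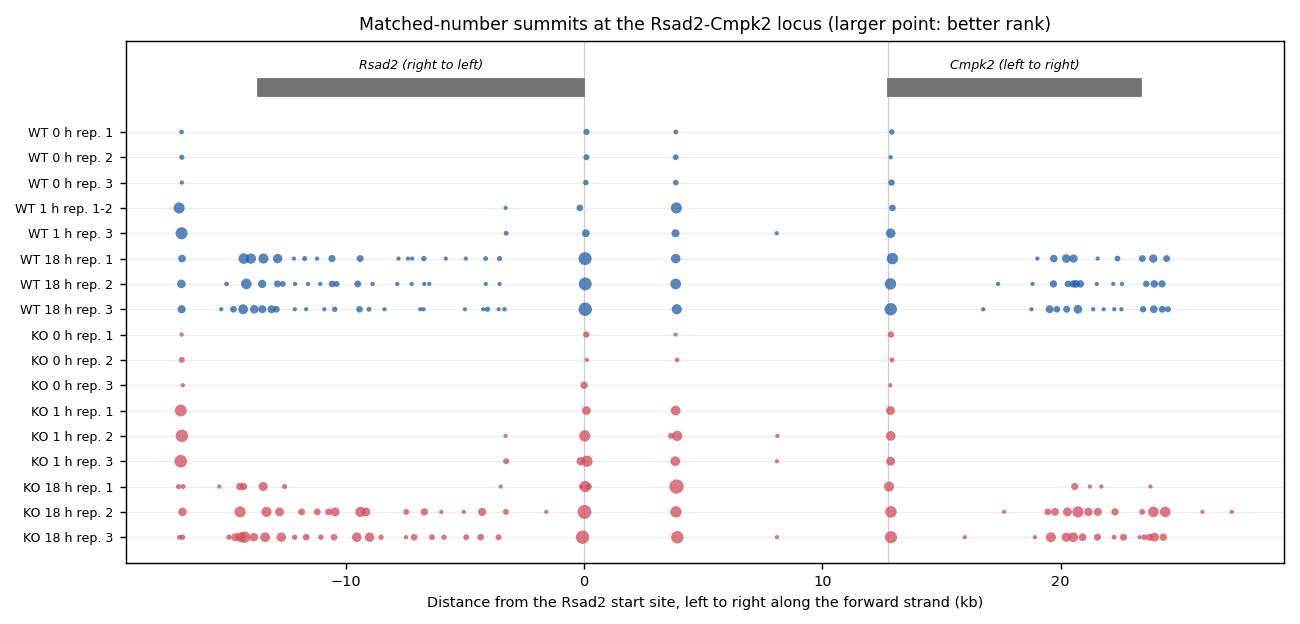
Matched-number summits of the 17 lists (rows, WT blue, KO red) at the Rsad2 and Cmpk2 locus against distance from the Rsad2 start in kb, with point size growing with a better rank and gene bodies as grey bars. The left-most column of points, 17 kb from the start, is largest at 1 h, and summits cover both gene bodies at 18 h.

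Isg15 is a small gene on chromosome 4 whose start lies close to that of Agrn, an extracellular matrix gene. Their promoters fell into 1 merged site, so the summit window over the Isg15 start (chr4:156200545-156201045) was followed instead. At 0 h it ranked 31975, 30178 and 34951 in WT and 32050 and 35081 in KO, with none in KO replicate 3, all beyond the limit of 26558. At 1 h it ranked 16430 and 7950 in WT and 8033, 15433 and 9042 in KO. The 18 h ranks were 7978, 6497 and 7663 in WT and 10776, 8706 and 6865 in KO, which overlapped those of 1 h. With every 0 h value set to the limit, the differences from 0 h (1.29 ± 0.20 at 1 h and 1.74 ± 0.19 at 18 h) could not be negative and are given without a test. The difference between 1 and 18 h was 0.45 ± 0.20 (limma, adjusted p = 0.126). The merged site with Agrn, whose best summit lay 3 kb from the Isg15 start, differed by 0.30 at 1 h (adjusted p = 0.839) and 2.62 at 18 h (adjusted p = 0.0123). Its 18 h call was lost with a rank limit of 10000, on a linear rank and in the exact permutation test. At the merged site KO 18 h replicate 1, at rank 1748, stayed within the 0 h range of 666 to 1909. A second site 2.3 kb before the Isg15 start, over the promoter of AW011738, rose by 1.49 ± 0.11 at 18 h (adjusted p = 1.62e-06) and differed by -0.16 at 1 h (adjusted p = 0.335).

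Mx1 and Mx2 are neighbours on chromosome 16. In C57BL/6 and most other inbred strains both genes carry lesions that spoil the protein, and GENCODE classes Mx2 as a polymorphic pseudogene. The promoter window of Mx1 (chr16:97462717-97463217) ranked 19055, 18281 and 17049 in WT and 13938, 15618 and 16520 in KO at 0 h. At 1 h it ranked 16430 and 10361 in WT and 9963, 23145 and 15121 in KO, which overlapped 0 h. Its 18 h ranks were 1299, 1409 and 1879 in WT and 5621, 2251 and 873 in KO, apart from every earlier list. It differed by 0.24 ± 0.38 at 1 h (limma, adjusted p = 0.721) and rose by 3.18 ± 0.36 at 18 h (adjusted p = 4.9e-05). Among the 6 promoter windows present at 0 h this was the largest 18 h difference.

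Mx2 had a pair of promoter windows. The one at the gene start (chr16:97534914-97535414) ranked 7477 to 8680 at 0 h, 3716 to 6690 at 1 h and 997 to 2996 at 18 h. It differed by 0.64 ± 0.24 at 1 h (limma, adjusted p = 0.0731) and rose by 2.12 ± 0.23 at 18 h (adjusted p = 3.97e-05). The other lay 0.7 kb inside, over the start of the coding transcript printed above, and rose by 0.88 ± 0.29 at 1 h (adjusted p = 0.0415) and by 2.78 ± 0.28 at 18 h (adjusted p = 1.96e-05). Its 1 h call was lost when 9 of the 17 lists were left out singly, among them WT 1 h replicate 3 (0.59, adjusted p = 0.197). No 18 h list overlapped a 0 h list in either window.

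Away from the promoters, the Mx loci held sites that appeared only in the 18 h lists. The window 0.6 kb beyond the 3′ end of Mx1 (chr16:97446227-97446727) was in no list at 0 h or 1 h, matched or full. At 18 h it ranked 4298, 4053 and 4003 in WT and 4631, 2893 and 2370 in KO, a difference of 2.88 ± 0.12. A site 1.7 kb beyond the 3′ end of Mx2 was likewise in no list before 18 h, when it ranked 12131, 13779 and 12299 in WT and 10273, 4501 and 6512 in KO. Its difference was 1.40 ± 0.14. Both entered through the 18 h lists alone, so the differences are given without a test. A site at -9.7 kb from the start of Mx1, in an intron of Fam3b, was called at 1 h instead, with 0.95 ± 0.20 (limma, adjusted p = 0.00327). At 18 h its difference was 0.51 ± 0.19 (adjusted p = 0.0691), and that from 1 to 18 h was -0.44 ± 0.20 (adjusted p = 0.122).

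**Figure D3:**
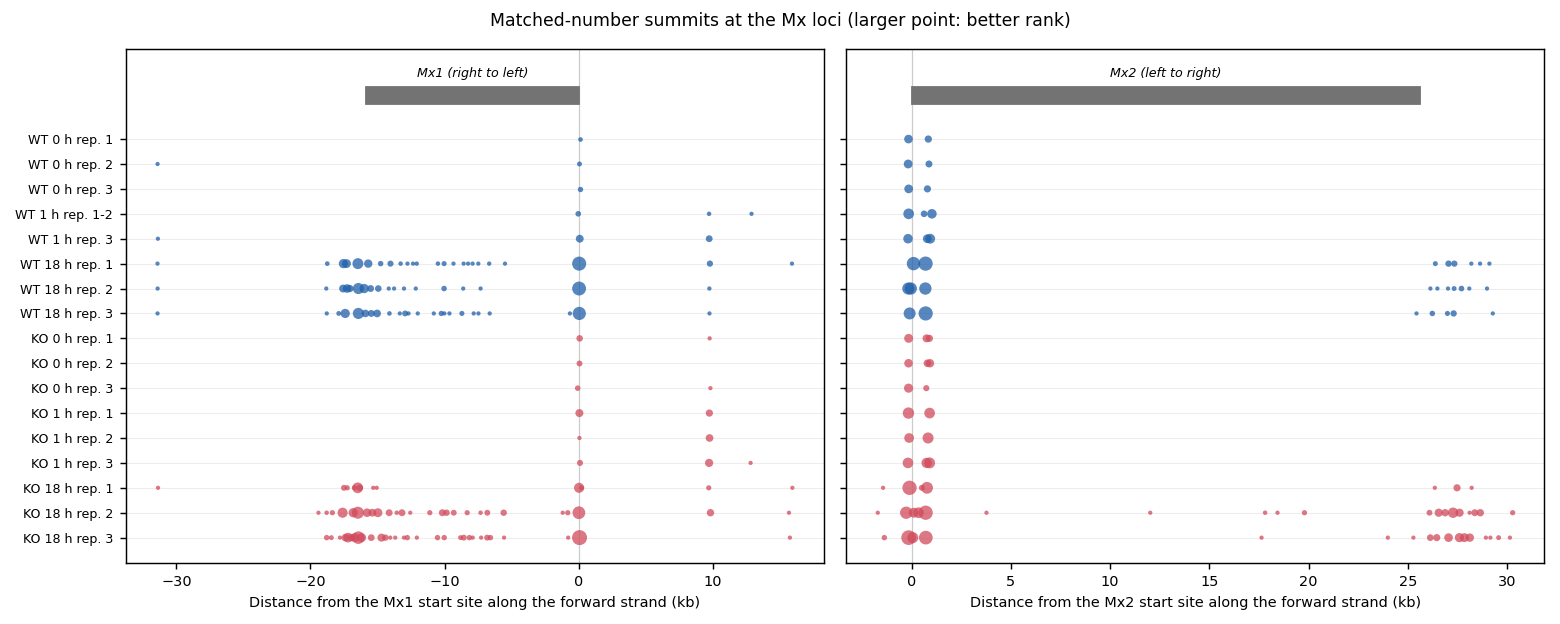
Matched-number summits of the 17 lists (rows, WT blue, KO red) around Mx1 (left) and Mx2 (right) against distance from each start in kb along the forward strand, with point size growing with a better rank. Before 18 h summits stand at the promoters and a few flanking points, and at 18 h they fill Mx1 and its 3′ flank and gather beyond the 3′ end of Mx2.

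Oas1a, Oas2 and Oas3 on chromosome 5 changed mainly at 18 h, with the largest difference among them at Oas3, the longest synthase. The promoter window of Oas3 (chr5:120777446-120777946) ranked 15571, 14703 and 15837 in WT and 16986, 17124 and 29254 in KO at 0 h. At 1 h it ranked 4037 and 11901 in WT and 12420, 12143 and 11285 in KO. By 18 h it ranked 3791, 3134 and 2123 in WT and 4631, 4730 and 3191 in KO, apart from every 0 h list. It rose by 2.33 ± 0.24 at 18 h (limma, adjusted p = 2.39e-05). The 1 h rise of 0.94 ± 0.25 (adjusted p = 0.0151) was lost without WT 1 h replicate 1-2 (adjusted p = 0.0726). A window in an Oas3 intron 1.8 kb from the start fell by 0.70 ± 0.13 at 1 h (adjusted p = 0.00165). It was the 1 member window to fall then, but 65 of the 81 had no matched-number summit at 0 h and could not fall. Over all windows 13.9% fell. At 18 h that intron window had risen by 1.41 ± 0.12 over 0 h (adjusted p = 8.15e-06).

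Oas2 and Oas1a moved less surely. The Oas2 promoter window ranked 10514 to 13373 at 0 h and 7214 to 17849 at 1 h. At 18 h it ranked 3180, 5615 and 4700 in WT and 23774, 4336 and 4377 in KO, where KO replicate 1 alone was worse than at 0 h. The 18 h difference was 1.06 ± 0.38 (limma, adjusted p = 0.0667), and that of the merged site 1.03 (adjusted p = 0.0621), which became 1.43 (adjusted p = 0.000351) without KO 18 h replicate 1. Oas1a had a weak promoter at 0 h, with window ranks of 33111 to 54982 in 5 lists. KO replicate 3 had no summit in the window but an interval of 779 bp over the start, at a site rank of 22922, the 1 list at 0 h inside the limit. By 18 h it ranked 14134, 17484 and 13961 in WT and 6597 and 18457 in KO, with none in KO replicate 1. The window counted as present in 5 lists, all at 18 h, so its difference of 0.83 ± 0.25 is given without a test. The merged site was present in 1 list at 0 h, 0 at 1 h and 5 at 18 h, so it too entered through the 18 h lists, and its difference of 0.91 ± 0.25 is given without a test.

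Oasl1 and Oasl2 encode OAS-like proteins, of which Oasl1 lacks synthase activity. The Oasl1 promoter window (chr5:114922882-114923382) went from ranks of 40188 to 74143 at 0 h, with none in KO replicate 3, to 11520 to 20079 at 1 h. At 18 h it ranked 4875, 3312 and 3301 in WT and 17668, 5577 and 2370 in KO. It was beyond the limit in every 0 h list, so the differences of 0.79 ± 0.39 at 1 h and 2.46 ± 0.37 at 18 h are given without a test. A second window 1.2 kb before the start ranked 13118 to 18422 at 0 h and 2370 to 5621 at 18 h, and rose by 2.05 ± 0.22 (limma, adjusted p = 3.24e-05). The Oasl2 window went from ranks of 26699 to 34016 at 0 h, again all beyond the limit, to 9421, 11831 and 11413 in WT and 32200, 9550 and 12283 in KO at 18 h. Its difference of 1.08 ± 0.19 is given without a test, while the merged Oasl2 site, present in 2 lists at 0 h, rose by 1.12 ± 0.20 (adjusted p = 0.00158). The call of the merged site was lost with a rank limit of 10000 (0.10, adjusted p = 0.697), with no rank limit and in the exact permutation test. Its KO replicate 1 again stayed within the 0 h range. The window lies 0.7 kb inside the gene.

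**Figure D4:**
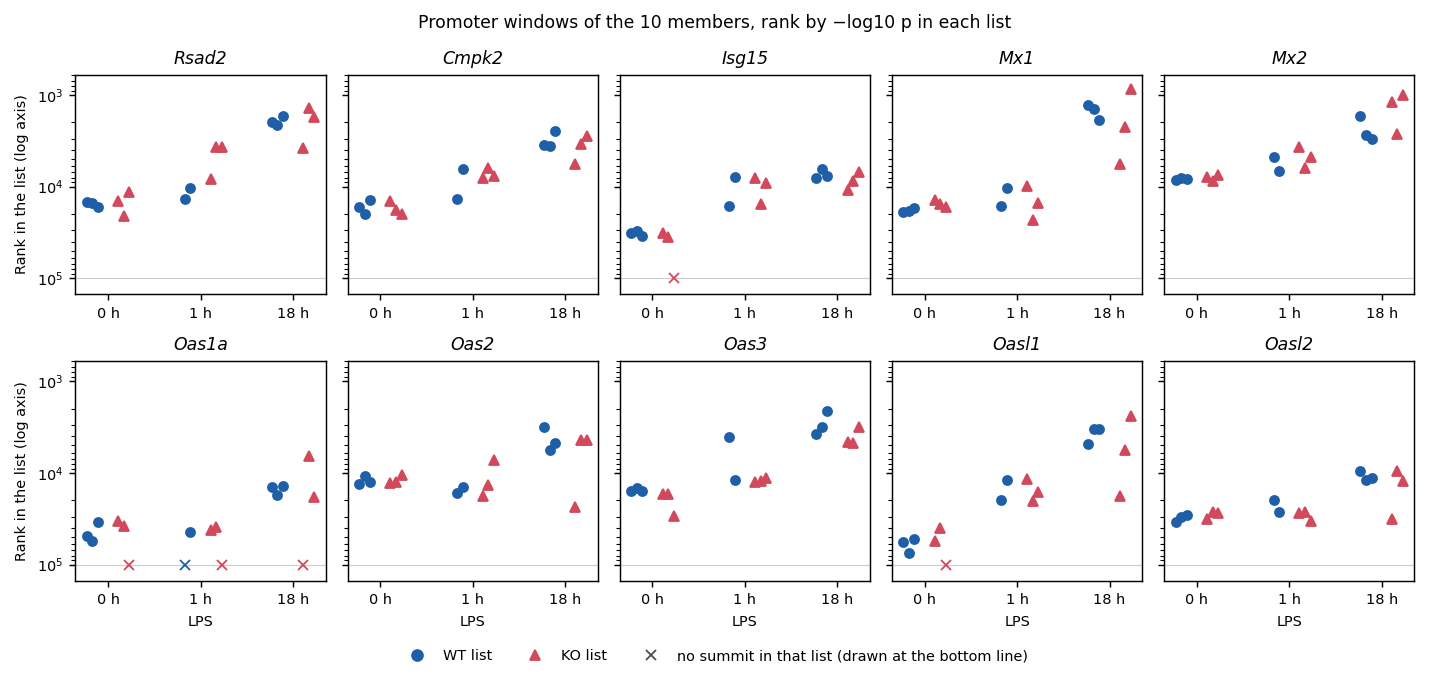
Rank of the promoter summit window of each member (vertical, log axis, better ranks at the top) at 0, 1 and 18 h of LPS, with 1 point a list (blue circles WT, red triangles KO) and crosses where a list had no summit. Every gene has most of its 18 h points above its 0 h points, and at Cmpk2, Isg15, Mx2, Oas3 and Oasl1 every 1 h point also lies above every 0 h point.

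Of the 10 promoter windows, 6 counted as present at 0 h, and of these 3 rose at 1 h (Rsad2, Cmpk2 and Oas3) and 5 at 18 h, all but Oas2. Of all 81 member windows limma called 8 higher at 1 h and 43 at 18 h, against 12.5% and 8.85% of all windows. Since 56 of the 81 had a matched-number summit only at 18 h, most of the 18 h count was fixed by how windows entered. Among the 16 with one at 0 h, 7 were higher at 1 h and 12 at 18 h, against 9.79% and 7.19% of all windows of that kind.

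**Figure D5:**
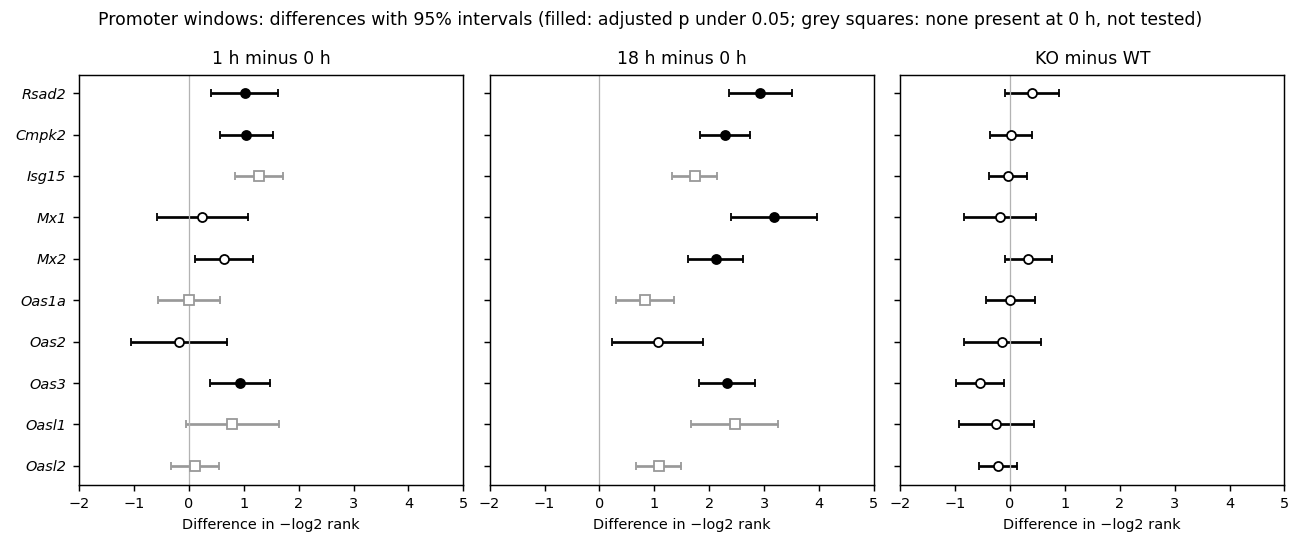
Difference in minus log2 rank of the promoter windows of the 10 members, with 95% intervals (bars), for 1 h minus 0 h, 18 h minus 0 h and KO minus WT. Filled points had a limma adjusted p under 0.05, and grey squares are windows with no matched-number summit at 0 h, which were not tested against it. At 1 h 3 points are filled, at 18 h 5 and between genotypes 0.

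At 18 h the matched-number lists had summits along whole gene bodies at 3 of the members. These summits were counted inside each gene, over 1 kb from its start. Rsad2 had 0 in all 6 lists at 0 h and 0 to 1 at 1 h. At 18 h it had 15, 16 and 17 in WT and 3, 15 and 16 in KO. Mx1 had 0 in every list at 0 and 1 h, and 16, 9 and 15 in WT and 2, 16 and 18 in KO at 18 h. Cmpk2 also went from 0 in every earlier list to 6, 10 and 10 in WT and 3, 8 and 10 in KO. KO 18 h replicate 1, the list with narrow intervals, was the lowest of the 18 h lists for each of these genes. Over all 7756 genes with such a summit in any list, 2.53% had every 18 h list above every 0 h list, and 3.49% with KO 18 h replicate 1 left out. Single intervals over the start site as long as the gene were rarer. At 18 h the Rsad2 interval spanned 18378 bp in WT replicate 1 and 538 to 1240 bp in the other 5 lists, against 487 to 1209 bp at 0 h. The Mx1 interval spanned 21219 bp in WT replicate 1, 305 bp in KO replicate 1 and 2389 to 4586 bp in the others, against 385 to 1416 bp at 0 h. The Cmpk2 interval spanned 13877 and 13571 bp in WT replicates 1 and 2 and 335 to 1335 bp in the others, against 551 to 1219 bp at 0 h. Isg15, Oas1a, Oas2 and Oasl2 had 0 such summits in every list, and Oas3, Oasl1 and Mx2 had at most 5. Isg15 is 1395 bp long, which leaves little of the gene beyond 1 kb to count. The full lists, with summits of worse rank, held more at other loci too. Counted over the whole locus, Mx2 had 50, 46 and 35 in WT and 10, 24 and 23 in KO at 18 h, against 2 to 3 at 0 h. The locus of Oasl2 and Oasl1 had 47, 37 and 29 in WT and 10, 13 and 14 in KO, against 4 to 7. That of Oas2 and Oas3 had 37, 24 and 17 in WT and 9 in each KO list, against 3 to 12. Full lists held 58461 to 83628 entries in WT and 34315 to 40412 in KO at 18 h, and 31783 to 92594 at 0 h, and the part of list length in these counts was not tested.

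Few members passed a test between KO and WT. Averaged over the times, limma called 0 of 27 sites (0.562% over all sites), with 5 at unadjusted p under 0.05 and a smallest adjusted p of 0.332. The response at 1 h differed between genotypes at 0 sites (0.202% over all), with 0 at unadjusted p under 0.05, and the response at 18 h at 0 sites (0.041% over all), with 4. The exact permutation test over lists, whose smallest p is 0.00025 for KO against WT, called 0 sites of the whole series there. A p of 0.00025 passes the adjustment only where many sites reach it. For the genotype difference in either response the smallest p is 0.005, which passes only where a large share of all sites reaches it. Nothing is therefore read from the permutation test for any genotype comparison. Without WT 1 h replicate 3, the KO minus WT difference of the Oas3 promoter site averaged over the times was -0.72. WT at 1 h then rested on replicate 1-2 alone, at rank 3595, against 10331 in the list left out and 9793 to 10923 in KO. Among the 81 windows limma called 0 in the same comparisons, against 0.717%, 0.328% and 0.0604% of all windows.

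Taken at each time alone, KO minus WT passed at 0 of 27 sites at 0 h (0.208% over all sites), 0 at 1 h (1.1%) and 1 at 18 h (0.968%), with 0, 1 and 7 at unadjusted p under 0.05. Of the 81 windows it passed at 0 at 0 h (0.226% of all windows), 0 at 1 h (1.25%) and 2 at 18 h (1.13%), with 0, 2 and 16 at unadjusted p under 0.05. The share of all sites or windows at unadjusted p was not counted for any genotype comparison, so no excess is read from the unadjusted counts. The site called was that of Oas1g, which ranked 18692, 20324 and 20622 in WT and counted as present in 1 KO list (23273). One window called, 1.8 kb before the Isg15 start, was in no WT list at 18 h and ranked 15450, 19554 and 20210 in KO. Each of these was admitted by the genotype where it is high, so their differences of -0.27 and 0.54 are given without a test. The other window called (chr4:156198433-156198933, 2.1 kb from the Isg15 start, intergenic and beside Agrn) was present in all 6 lists at 18 h. It ranked 20077, 20459 and 18539 in WT and 15450, 14123 and 13302 in KO, with no overlap. Its KO minus WT difference was 0.46, which leaving out single lists moved between 0.41 and 0.52. The other 11 lists were all at the limit and added no spread to the limma error, so nothing is read from the limma call of this window. The exact permutation test of its 6 lists at 18 h gave p = 0.1, the smallest that 3 against 3 lists allow (two-sided).

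Intervals for the KO minus WT difference of promoter windows leave room for moderate effects. For Rsad2 it was 0.40 (95% interval -0.09 to 0.89), for Isg15 -0.03 (-0.38 to 0.32) and for Mx1 -0.18 (-0.84 to 0.48). Oas3 had the interval farthest from 0, at -0.55 (-0.98 to -0.11), with an adjusted p of 0.334. At 1 h the 3 KO lists ranked the Rsad2 promoter better than both WT lists, and the KO minus WT difference in the 1 h response was 1.26 ± 0.56 (limma, adjusted p = 0.657). At the upstream element the 18 h response was 1.69 ± 0.53 larger in KO (limma, adjusted p = 0.428). At the site beyond the 3′ end of Mx2, which was in no list before 18 h, the KO lists exceeded the WT lists by 0.92 at 18 h, or by 1.23 with KO replicate 1 left out. The other 11 lists were all at the limit and added no spread, so no test is given for it. The number of intervals moved with genotype at 18 h, 46364 to 61492 in WT lists and 29568 to 36136 in KO lists, and its part in these values was not tested.

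The genes of the interferon pathway itself were counted in the same way. Of 10 interferon signalling genes 9 had a promoter site, Ifnb1 being the other. At 1 h 0 passed in limma, with 1 at unadjusted p under 0.05, Irf3, which was lower (-1.61, adjusted p = 0.0809), and a list median of 0.14 against -0.02 over all sites, where 12.8% of all sites were higher and 14.1% lower. At 18 h 3 rose and 0 fell, where 10.1% of all sites were higher and 12.7% lower, with a list median of 0.35 against 0 over all sites. Irf7, the amplifier of interferon genes, rose by 3.37 ± 0.26 (adjusted p = 2.5e-06), Stat2 by 1.63 ± 0.29 (adjusted p = 0.00135) and Irf9 by 1.04 ± 0.29 (adjusted p = 0.0204).

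Of 18 further antiviral interferon-stimulated genes 17 had a promoter site. At 1 h 6 rose (limma, Herc6 only just under the threshold) and 2 fell, beside 12.8% and 14.1% of all sites, and the list median was -0.0001 against -0.02 over all sites. At 18 h 11 rose and 1 fell, beside 10.1% and 12.7%, and the list median was 1.00. The largest 18 h rises were those of Ifit1, which binds viral RNA (2.25 ± 0.31), Herc6, an ISG15 ligase (2.12 ± 0.19), Zbp1, a sensor of Z-form nucleic acid (2.02 ± 0.23), and Xaf1 (1.39 ± 0.20). Of the 7 Oas1 paralogues next to Oas1a, Oas1b, Oas1c and Oas1g had promoter sites, the first pair sharing one. The shared site rose by 0.64 ± 0.21 at 18 h (limma, adjusted p = 0.0464). The Oas1g site was in 4 matched-number lists, all at 18 h, and its difference of 0.16 ± 0.04 is given without a test.

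The merged Rsad2 site joins the promoter with the gene body and the downstream element, and rose by 2.23 at 1 h where the promoter window alone rose by 1.02. The promoter sites whose pattern over the 17 lists was most like that of this merged site were Nfe2l1 (Pearson r = 0.956), the site shared by Ccl5 and Heatr9 (0.942), Rtp4 (0.940), Mllt6 (0.928) and Gbp2 (0.928). These correlations describe lists that share the same LPS times.

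Motif letters were counted around the summits as a description. The ISRE core lay within 100 bp of the summit in 8 of 81 member windows (9.88%), against 3.54% of all windows and 8.07% of all windows that rose at 18 h. Promoter windows of Isg15, Oas2, Oas3 and Mx2 were among them. The Rsad2 core printed above fell just outside that reach, and Mx1 and Cmpk2 had none. Over all windows, 29.6% of the 115 with at least 2 cores rose at 18 h, against 8.43% of those without one. At 1 h the shares were 19.1% and 12.3%.

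The other motifs were counted in the same way. AP-1 (TGANTCA) was in 16% of member windows, against 18.4% of all windows and 25.4% of those that rose at 18 h. NF-kB (by name) was in 2.47%, against 5.10% and 8.61%. GAS (TTCNNNGAA) was in 4.94%, against 5.46% and 6.47%, and PU.1 (GAGGAAGT) in 2.47%, against 7.14% and 7.42%. NBRE, the Nur77 monomer motif (AAAGGTCA), was in 1 of 81 member windows (1.23%), against 1.00% and 1.28%. Among the 10 promoter windows, NF-kB, GAS, PU.1 and NBRE were in 0 and AP-1 was in 2, those of Oas3 and Rsad2.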

How the data were processed

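ATAC-seq peaks of 17 BMDM samples were analysed. The authors trimmed reads with cutadapt 2.6, mapped them to mm10 in the snakeATAC pipeline (version not given in the sources used here) and called peaks separately in each sample at a q-value of 0.001. In the deposited files the score was 10 times −log10 q in 100% of entries, the fold was a ratio of read pileup over local background, and each p-value or q-value was given as −log10. The authors' DiffBind 3.0.15 test needs read counts, which were not used here, so no count test was run.

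Entries sharing an interval were collapsed to the smallest p-value, and 1 entry with no summit was placed mid-interval. Intervals were ranked by −log10 p-value inside each list, with ties given their mean rank. The largest tie took 1.14 to 16.9% of a list, and ties at the limit of 24389 were broken with seed 1. Intervals of the matched-number lists were merged into sites and kept where seen in at least 2 lists. limma 3.58.1 (R 4.3.3, Python 3.11.15) was fitted to −log2 rank over all sites with the 6 group means, all lists together, and p-values were adjusted by Benjamini-Hochberg. The scripts were tested on simulated data first. Intervals of differences are unadjusted 95% limits.

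The members and gene lists were chosen with earlier results of these data known. Sites named are each member's promoter site (within 1 kb of the start) and up to 4 further sites a locus by the smallest p. Windows and gene bodies singled out beyond these were chosen after their values were seen. Pathway genes are named up to 4 a list by the largest difference, apart from Oas1g, named after its values were seen, and some genes of these lists are not reported here by name. RefSeq's promoter table matched 7 of 10 members, so promoters were read from the genome. Alternatives covered rank limits, scale, overlap, site definition, filters, threshold, an exact permutation test, a covariate, array weights, a replicate block and each list left out.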

Additional observations from a re-analysis of the deposited data

How the results depend on the processing

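The counts over the 27 member sites were recomputed under each alternative. The 6 sites higher at 1 h became 2 with a rank limit of 10000, 3 with no rank limit and 1 when a peak had to cover 50% of the site. The 15 higher at 18 h became 9 with the limit of 10000, and 43 of 81 as summit windows. The 14 that differed between 1 and 18 h became 7 with the limit of 10000, 8 with the 50% cover, 6 in the exact permutation test and 41 of 81 as summit windows. The KO against WT count of 0 became 2 with the 50% cover, and the KO minus WT count at 18 h became 2 with that cover and 1 with array weights. With the 50% cover these were the promoter sites of Cmpk2, at the limit in every list but the 3 of WT at 18 h, and of Oas1g, admitted by the WT lists at 18 h. With array weights, and without KO 18 h replicate 1, it was the site beyond the 3′ end of Mx2, at the limit in all lists before 18 h. Lists at the limit add no spread, so nothing is read from these calls. Without WT 1 h replicate 3, which leaves 1 WT list at 1 h, the Oas3 promoter site differed by -0.72 for KO against WT and by -1.34 for the 1 h response. Leaving out each list in turn gave 5 to 7 sites at 1 h, 14 to 18 at 18 h, 11 to 17 between 1 and 18 h, and 0 to 1 in each genotype comparison.

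Differences at 1 h that were not called turned negative with no rank limit at the promoter sites of Isg15 (merged with Agrn, -0.12), Oasl2 (-0.23), Oasl1 (-0.033) and Mx1 (-0.19). That of Oas2 became 0.073 with the limit of 10000. Every 1 h call of a merged promoter site was lost under some alternative. The Oas3 call was lost in 13 of the 17 leave-outs, with both other rank limits, the covariate and the replicate block, and turned to -0.18 with the 50% cover. With that cover the Rsad2, Cmpk2 and Mx2 differences became 0. With no rank limit the calls of Cmpk2 (0.58, adjusted p = 0.182) and Mx2 (0.37, adjusted p = 0.331) were lost, that of Cmpk2 also with the limit of 10000 (0.52, adjusted p = 0.159), and that of Mx2 as a summit window (0.64). At 18 h the calls of the merged Isg15 and Agrn site and of the Oasl2 site were lost in the exact permutation test (adjusted p = 0.0771 each). Both were also lost with the limit of 10000 (adjusted p = 0.0655 and 0.697). The merged Isg15 and Agrn site was lost on the linear rank too (adjusted p = 0.222), and the Oasl2 site with no limit (0.0517). The 50% cover lost Oasl1 (0.021, adjusted p = 0.671) and Mx2 (1.29, adjusted p = 0.159). The Oas2 difference passed with the limit of 10000, the 5-list filter and array weights. The cause was not tested in any of these cases.

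A replicate block in the model gave these counts. They were 5 at 1 h, 15 at 18 h, 10 between 1 and 18 h and 0 in each genotype comparison. Deviations from the group means correlated at -0.226 to 0.206 (median 0.01) between lists of the same number, and at -0.276 to 0.404 between other lists. Deviations within such small groups depend on each other, so these values cannot show whether the numbers pair the lists.

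Without read counts, a rank gives the order inside a list and no amount of signal. Some lists hold large ties, up to 16.9% of a list, and a site absent from a matched-number list may be present at a worse rank. Merged sites at 18 h joined promoters with gene bodies and the Rsad2 downstream element, so the merged Rsad2 site rose by 2.23 at 1 h where its promoter window rose by 1.02.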
